A study of Homo sapiens with 12 samples.

Results

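The 54 genes described here encode the core of the Wnt pathway, from the secreted ligands to the transcription factors that answer them. They were listed by name as core members of the pathway, and all 54 were found among the 20033 protein-coding genes of chromosomes 1 to 22, X and Y in GENCODE release 44. To determine where the RNA- and DNA-binding protein hnRNPK lay on these genes, the peaks of 6 lists from chromatin immunoprecipitation and sequencing (ChIP-seq) were assigned to them. The immunoprecipitations used an antibody against hnRNPK and were made in HCT116, an established human colorectal carcinoma line that carries mutant CTNNB1. All groups overexpressed hnRNPK. The CRLM1-OE group also overexpressed the long noncoding RNA CRLM1, and the others carried the empty control or the antisense control, with 2 peak lists per group and each immunoprecipitated library called by the authors against its own input library. The labels number the replicates without saying whether they came from separate cultures. Peaks were assigned to a gene where they overlapped the gene body or its 5 kb upstream of the transcription start site (TSS), the 5' end of the gene record, and were called TSS-proximal where any base came within 1 kb of that site. The lists hold no expression values, so the identity of the cells could not be checked against marker genes.

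In the absence of Wnt, a destruction complex of APC, AXIN1 or AXIN2, GSK3A or GSK3B and the casein kinase CSNK1A1 marks beta-catenin, the product of CTNNB1, for degradation. A Wnt ligand that joins a Frizzled receptor to LRP5 or LRP6 recruits Dishevelled proteins, the complex is held back, and beta-catenin enters the nucleus, where it activates genes with the TCF and LEF factors and the adaptors BCL9 and BCL9L. Most colorectal carcinomas activate this pathway through loss of APC or mutation of CTNNB1. hnRNPK itself is known to prefer C-rich single strands.

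The share of Wnt pathway genes with an hnRNPK peak was near that of all protein-coding genes over all lists, and so was the share with a peak in 1 list only. List by list it lay above that of all genes in some lists and below it in others. In the CRLM1-OE lists, 6 and 4 of the 54 genes carried a peak (11.1% and 7.41%). The numbers were 3 and 4 in the empty control lists (5.56% and 7.41%) and 4 and 2 in the antisense control lists (7.41% and 3.7%). The corresponding shares of all protein-coding genes were 10.6% and 9.38% in CRLM1-OE, 3.5% and 5.71% in the empty control, and 5.7% and 5.84% in the antisense control. Over the 6 lists, 15 Wnt pathway genes carried 25 peaks and 39 genes carried none. That is 27.8% of the 54 genes, beside 28.2% of all protein-coding genes with a peak in any list. Among genes of similar length and GC content, described below, the share was higher, at 35.6%. A peak in 1 list only was found for 11 of the 54 genes (20.4%), beside 19.9% of all genes. No Wnt pathway gene was called in both CRLM1-OE lists while absent from every control list, a pattern found for 1.05% of all genes.

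**Figure D1:**
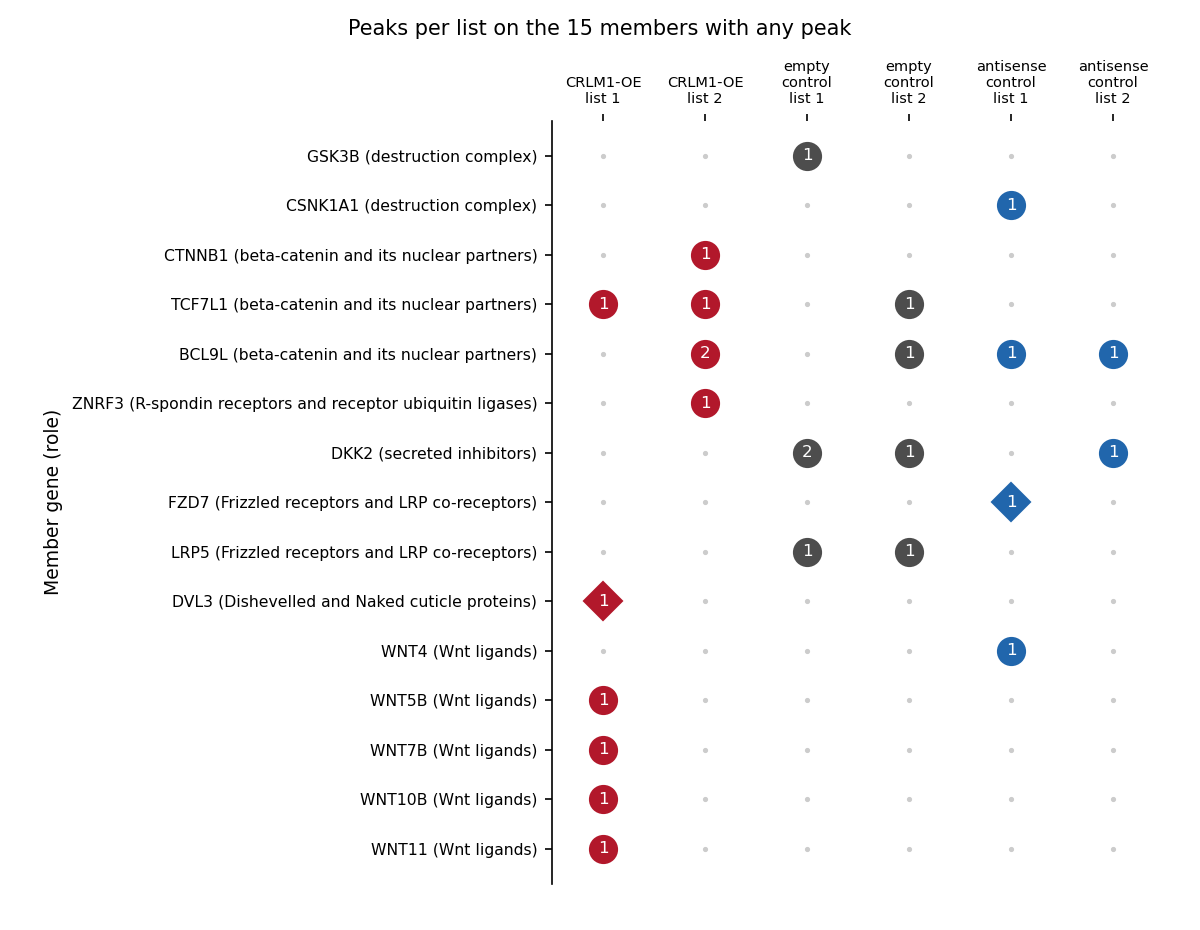
Number of peaks of each list (columns) on the gene body or 5 kb upstream of the 15 Wnt pathway genes with any peak (rows, with their role). Diamonds mark a peak within 1 kb of the TSS, circles any other peak, small grey dots no peak, and colours mark the group. The symbols are scattered, and BCL9L, with 5 peaks in 4 lists, has the fullest row.

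Only DVL3 and FZD7 carried a peak within 1 kb of the TSS, and both were called in a single list. Their sequences are given because these are the TSS-proximal peaks of the group of genes, followed by 3 stretches chosen after the values were seen. These are a stretch of the widest peak on BCL9L next to an internal transcript start, the centre of the WNT7B peak, and, as the contrast, the centre of the AT-rich peak upstream of DKK2. The WNT7B peak was picked as an intronic peak with matches to CCCTCCC. All are read 5' to 3' on the strand of the gene from hg38, and none overlaps an exon of a protein-coding transcript. Runs of 4 or more C or G are in capitals, the second being C runs on the other strand. The stretches are chr3:184155077-184155376 (plus strand) for DVL3, chr2:202033782-202033854 (plus strand) for FZD7, chr11:118910905-118911204 (minus strand) for BCL9L, chr22:45961785-45962084 (minus strand) for WNT7B and chr4:107288017-107288316 (minus strand) for DKK2.
DVL3: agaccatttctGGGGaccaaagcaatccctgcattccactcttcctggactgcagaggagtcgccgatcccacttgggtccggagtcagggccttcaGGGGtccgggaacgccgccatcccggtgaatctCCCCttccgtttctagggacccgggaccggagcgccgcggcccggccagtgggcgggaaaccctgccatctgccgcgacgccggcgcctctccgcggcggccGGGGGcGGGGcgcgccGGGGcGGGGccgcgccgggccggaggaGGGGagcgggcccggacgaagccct
FZD7: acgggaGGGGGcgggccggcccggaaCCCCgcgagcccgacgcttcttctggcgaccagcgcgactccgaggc
BCL9L: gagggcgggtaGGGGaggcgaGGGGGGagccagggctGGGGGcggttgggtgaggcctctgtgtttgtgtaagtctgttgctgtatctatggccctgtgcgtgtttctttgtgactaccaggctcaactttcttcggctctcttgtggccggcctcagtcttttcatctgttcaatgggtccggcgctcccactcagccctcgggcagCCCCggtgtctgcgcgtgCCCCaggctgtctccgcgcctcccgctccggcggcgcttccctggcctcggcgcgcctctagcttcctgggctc
WNT7B: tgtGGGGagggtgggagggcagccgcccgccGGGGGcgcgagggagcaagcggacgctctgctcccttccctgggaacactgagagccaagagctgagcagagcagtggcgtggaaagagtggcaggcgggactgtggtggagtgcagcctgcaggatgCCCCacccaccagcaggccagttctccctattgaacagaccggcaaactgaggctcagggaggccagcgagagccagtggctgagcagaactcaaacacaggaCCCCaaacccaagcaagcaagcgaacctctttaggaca
DKK2: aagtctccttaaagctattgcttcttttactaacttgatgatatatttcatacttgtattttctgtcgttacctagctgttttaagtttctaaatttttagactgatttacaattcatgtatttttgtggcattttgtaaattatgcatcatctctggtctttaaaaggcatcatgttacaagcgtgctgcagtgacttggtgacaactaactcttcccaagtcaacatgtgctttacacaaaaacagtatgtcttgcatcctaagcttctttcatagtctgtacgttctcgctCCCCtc
The DVL3 stretch, the 300 bases that end at its TSS, has a GC content of 73.3% and holds 7 G runs and 1 C run. The peak on FZD7 begins 73 bases before the TSS, and those bases have a GC content of 78.1% with 1 run of each kind. In BCL9L the GC content is 65.7% with 3 G runs and 2 C runs, and in WNT7B it is 63.7% with 2 of each. The DKK2 stretch has a GC content of 35.3% and a single C run. Counting every position where CCCC or GGGG begins, the DVL3 stretch holds 9 matches, BCL9L 8, WNT7B 5 and DKK2 1, beside a median of 6 in the 300 bases upstream of the TSS of all protein-coding genes and of 1 in the central 300 bases of all 16214 peaks. At least 1 match lies in 92.1% of those upstream windows and in 69.5% of the peak centres. The sequence CCCTCCC (either strand) occurs 2 times in the WNT7B stretch, 1 time in that of FZD7 and not in the other stretches. Its first 3 and last 3 letters can share a C run with CCCC. A match lies in 29.2% of the upstream windows and 12.7% of the peak centres. These shares are no comparison for WNT7B, which was picked for its matches, or for FZD7, whose stretch has 73 bases instead of 300.

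Around the TSS few genes of either kind had a peak, 2 Wnt pathway genes (3.70%) and 5.73% of all genes over the 6 lists. The number with a TSS-proximal peak was 1 and 0 in the CRLM1-OE lists, 0 and 0 in the empty control lists, and 1 and 0 in the antisense control lists. Among all protein-coding genes the share was 1.65% and 2.59% in CRLM1-OE, 0.19% and 0.544% in the empty control, and 0.839% and 0.889% in the antisense control. Promoters of Wnt pathway genes are GC-rich, with a median GC content of 63.6% in the 2 kb around the TSS against 55.0% for all protein-coding genes. Among the 200 genes with the nearest GC content to each of the 54, the mean share with a TSS-proximal peak was 3.09% and 4.56% in the CRLM1-OE lists, 0.222% and 0.917% in the empty control, and 1.70% and 1.56% in the antisense control. None of the 54 genes had such a peak in both CRLM1-OE lists while lacking it in every control list, beside 0.205%. WNT10B lay just outside the limit, with a CRLM1-OE replicate 1 peak whose edge was 1020 bp from the TSS of the gene record and 41 bp from the start of another transcript. WNT10B encodes a Wnt ligand.

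The group means overlapped within their errors. For the gene body and 5 kb upstream, the mean number of Wnt pathway genes with a peak was 5.0 ± 1.41 (SD, n = 2 lists) in CRLM1-OE, 3.5 ± 0.707 (SD, n = 2) in the empty control and 3.0 ± 1.41 (SD, n = 2) in the antisense control. CRLM1-OE exceeded the empty control by 1.5 genes, under the 1.58 genes that the combined SD of both groups comes to. Against the antisense control the difference was 2.0 genes, equal to the combined SD of 2.0. CRLM1-OE replicate 2 and empty control replicate 2 both had 4 genes with a peak, as had antisense control replicate 1, so the groups overlapped. For the TSS-proximal peaks the means were 0.5 ± 0.707 (SD, n = 2) in CRLM1-OE and the same in the antisense control, with none in either empty control list. Over all protein-coding genes, the mean number with a peak on the body or 5 kb upstream was 2003 ± 174 (SD, n = 2) in CRLM1-OE, 922 ± 313 (SD, n = 2) in the empty control and 1156 ± 19.8 (SD, n = 2) in the antisense control.

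Gene length and base composition can bear on how many peaks a gene region meets, which was not tested. Each gene was therefore also read against the 200 other protein-coding genes nearest to it in length and GC content. The median gene length was 33.8 kb for the 54 genes and 27.5 kb for all protein-coding genes, and the median GC content of body and 5 kb upstream was 50.7% and 44.8%. Among the genes of similar length and GC content, the share with a peak was 13.9% and 11.9% in the CRLM1-OE lists, where 11.1% and 7.41% of the Wnt pathway genes had one. It was 3.42% and 7.14% in the empty control lists, where the Wnt pathway genes stood at 5.56% and 7.41%. It was 6.97% and 7.17% in the antisense control lists, where they stood at 7.41% and 3.70%. The Wnt pathway genes were thus below similar genes in both CRLM1-OE lists and in antisense control replicate 2, and above them in the other 3 lists. In any of the 6 lists, 35.6% of similar genes carried a peak, beside the 27.8% of Wnt pathway genes.

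**Figure D2:**
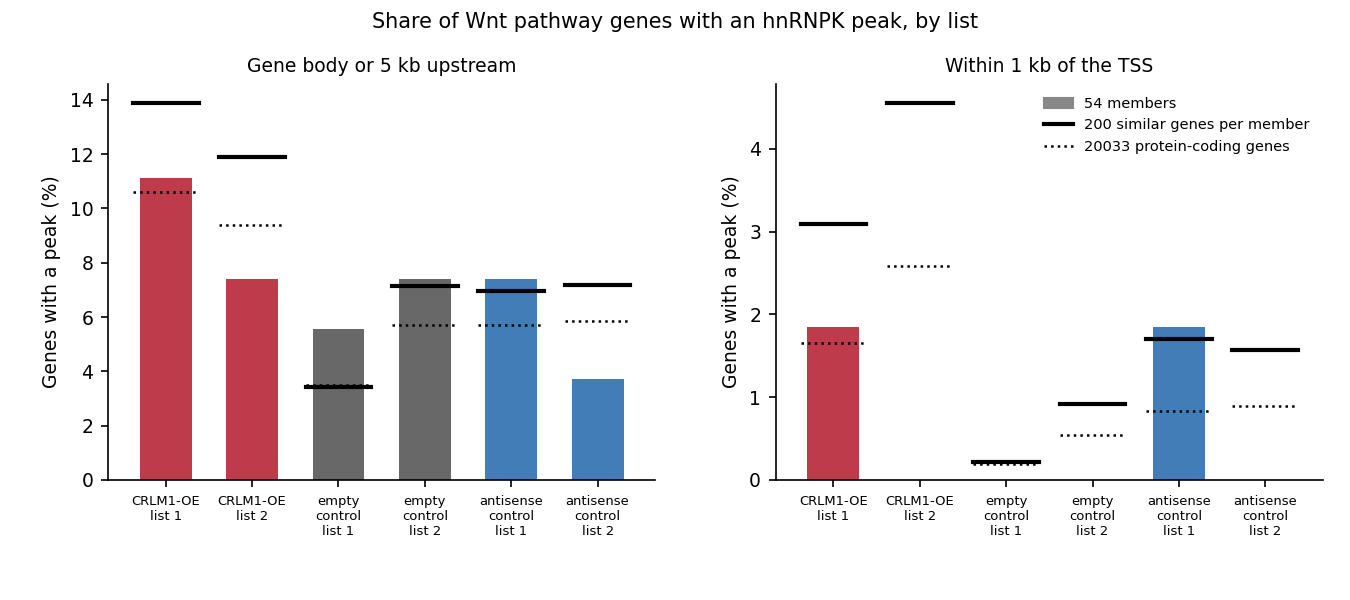
Share of genes with a peak (%) in each of the 6 lists, for the gene body or 5 kb upstream (left) and for 1 kb on either side of the TSS (right). Bars are the 54 Wnt pathway genes, solid lines the mean over them of the share among the 200 nearest genes in length and GC content (GC content of the TSS window alone on the right), and dotted lines all 20033 protein-coding genes. Bars are below the solid lines in both CRLM1-OE lists.

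Peaks were also counted per unit of sequence. The bodies and 5 kb upstream of the 54 genes cover 3.73 Mb. They held 1.61 and 1.34 peaks per Mb in the CRLM1-OE lists, 1.07 and 1.07 in the empty control lists, and 1.07 and 0.537 in the antisense control lists. The regions of all protein-coding genes held 1.66 and 1.32 peaks per Mb in CRLM1-OE, 0.528 and 0.951 in the empty control, and 0.826 and 0.842 in the antisense control. The median distance from the TSS of a Wnt pathway gene to the nearest peak was 170 kb and 311 kb in the CRLM1-OE lists, against 209 kb and 252 kb for all protein-coding genes. In the control lists it ran from 407 kb in antisense control replicate 1 to 810 kb in empty control replicate 1, where all genes with a peak on their chromosome stood at 412 kb and 735 kb.

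Among the 10 Wnt ligand genes, 5 carried a peak, each in 1 list, where 28.2% of all genes and a mean of 41.6% of genes similar to these 10 had one in any list. WNT5B, WNT7B, WNT10B and WNT11 were called in CRLM1-OE replicate 1, which called 10.6% of all genes, and WNT4 in antisense control replicate 1. None of the 4 was called in CRLM1-OE replicate 2. The WNT7B peak, in intron 1 of its canonical transcript, ranked 679 of 4339 peaks in its list and had a GC content of 63.4%. The WNT11 and WNT10B peaks ranked 3507 and 2215 of 4339, with GC contents of 60.8% and 64.3%. The WNT5B peak, 318 bp wide, ranked 2837 of 4339 and lay also on FBXL14, so it cannot be given to 1 of these genes. The WNT4 peak, in intron 2, ranked 1188 of 2262 in its list. WNT3, WNT3A, WNT5A, WNT6 and WNT10A carried none. Among genes of similar length and GC content, 55.5% of those like WNT3 and 23.5% of those like WNT5A had a peak in any list.

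Of the 12 genes for Frizzled receptors and LRP co-receptors, FZD7 and LRP5 carried peaks, both in control lists only, beside 10.8% of all genes with that pattern and a mean of 22.7% of similar genes with a peak in any list. FZD7, a single-exon gene at chr2:202033855-202038441 (plus strand), held 0 peaks in both CRLM1-OE lists, 0 in both empty control lists, 1 in antisense control replicate 1 and 0 in antisense control replicate 2. Its peak at chr2:202033782-202034656 covered the TSS and the 5' UTR, and its bases upstream of the TSS are printed above. It ranked 216 of 2262 peaks by score, and its GC content of 75.4% was higher than in 99.1% of that list. Of the genes similar to FZD7, 13.5% had a peak in any list.

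LRP5, the co-receptor gene at chr11:68312591-68449275 (plus strand), held 0 peaks in both CRLM1-OE lists, 1 in each empty control list and 0 in both antisense control lists. Both empty control lists called 3.7% of the 54 genes, which are LRP5 and DKK2, beside 0.669% of all protein-coding genes. No share of genes of similar length and GC content was taken for this pattern, so 3.7% is not read as an excess. The LRP5 peaks did not share a place. That of replicate 1, at chr11:68356146-68356788 in intron 2, and that of replicate 2, at chr11:68419731-68420177 in intron 13, were 62.9 kb apart. They stood near the foot of their lists, at rank 1516 of 1619 and 2585 of 2607. LRP5 is a long gene, and 62.0% of genes like it had a peak in any list. LRP6 and the 9 other Frizzled genes carried no peak.

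DVL3, which encodes a Dishevelled protein that passes the signal on from the receptor, was the only gene of the 5 in the Dishevelled and Naked cuticle group with a peak. Located at chr3:184155377-184173614 (plus strand), it held 1 peak in CRLM1-OE replicate 1 and 0 in CRLM1-OE replicate 2 and in all 4 control lists. The peak at chr3:184154921-184155840 spanned 920 bp with its midpoint at the TSS, and included the GC-rich stretch printed above. It ranked 500 of 4339, and its GC content of 69.5% was above that of 96.2% of the list. In CRLM1-OE replicate 2 the nearest peak was 178483 bp from the TSS. DVL1, DVL2, NKD1 and NKD2 carried none. Among genes similar to the 5 of this group, a mean of 40.2% had a peak in any list.

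In the destruction complex, GSK3B and CSNK1A1, both kinases of beta-catenin, carried 1 peak each, in empty control replicate 1 and antisense control replicate 1. Neither was called in CRLM1-OE, and a peak in control lists only was found for 10.8% of all genes. Among genes similar to the 6 of this complex, a mean of 38.5% had a peak in any list. The GSK3B peak lay in intron 2, 103414 bp from the TSS, at rank 1529 of 1619, and that of CSNK1A1 also in intron 2, 14270 bp from the TSS, at rank 1024 of 2262. APC, AXIN1, AXIN2 and GSK3A carried no peak. AXIN2, itself a widely used target gene of the pathway, had the nearest one 7578 bp upstream, in antisense control replicate 1, outside the 5 kb limit.

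CTNNB1, the beta-catenin gene that is mutant in HCT116, lies at chr3:41194741-41260096 (plus strand). It held 0 peaks in CRLM1-OE replicate 1, 1 in CRLM1-OE replicate 2 and 0 in all 4 control lists. The peak, at chr3:41237082-41237791, had its midpoint in intron 13 of the 15-exon canonical transcript and touched 115 bp of exon. It ranked 1343 of 3163, and its GC content of 39.3% was higher than in 37.5% of the list. In CRLM1-OE replicate 1 the nearest peak was 417465 bp from the TSS. The 5' end of the CTNNB1 gene record lies in an AT-rich stretch with a GC content of 36.3% in 2 kb, and with the start of every transcript used instead the gene still had no TSS-proximal peak.

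TCF7L1, which encodes a TCF factor that partners beta-catenin on DNA, was the only gene of the 54 with a peak in both CRLM1-OE lists, a pattern found for 2.52% of all genes. Located at chr2:85133392-85310387 (plus strand), it held 1 peak in each CRLM1-OE list, 0 and 1 in the empty control lists and 0 in both antisense control lists. All 3 peaks lay in intron 3, in 3 places. The CRLM1-OE replicate 1 peak at chr2:85185341-85185871 was 36.8 kb from the CRLM1-OE replicate 2 peak at chr2:85222700-85223469, which in turn was 3.35 kb from the empty control replicate 2 peak at chr2:85218799-85219348. So the same gene, but no common site, was called in both CRLM1-OE lists. Their ranks were 1068 of 4339, 1157 of 3163 and 1566 of 2607. Among genes similar to TCF7L1, 68.5% carried a peak in any list. LEF1, TCF7 and TCF7L2, the other members of the factor family, carried none, although 70.5% of genes like TCF7L2 had one.

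BCL9L, an adaptor gene of the beta-catenin complex at chr11:118893875-118925926 (minus strand), had the most peaks of the 54. It held 0 and 2 peaks in the CRLM1-OE lists, 0 and 1 in the empty control lists, and 1 and 1 in the antisense control lists. A peak in 3 or more lists was found for 3 of the 54 genes (5.56%), BCL9L, TCF7L1 and DKK2, beside 2.86% of all genes. Among genes similar to these 3 the share was 5.0%, 7.0% and 11.5%. A peak in 4 or more lists was found for BCL9L alone, beside 0.968% of all genes and 1.0% of genes of its length and GC content. BCL9L was also the single gene of the 54 called in both antisense control lists, beside 0.884% of all genes. The call in 4 lists and that in both antisense control lists rest on a replicate 2 peak that also fell on CXCR5. That peak cannot be given to 1 of these genes. Because the CRLM1-OE and control lists both hold peaks here, the gene did not separate the groups.

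Of the BCL9L peaks, 2 lay at or near an internal transcript start 15.0 kb downstream of the TSS, and the others lay elsewhere in the gene. The CRLM1-OE replicate 2 peak at chr11:118910253-118913887, 3635 bp wide, covered that start, and the empty control replicate 2 peak at chr11:118909916-118910829 ended 75 bp from it. These 2 peaks shared 577 bp, and they were the only peaks on any of the 54 genes that overlapped a peak of another list. Over all lists, 7.41% of peaks overlapped a peak of another list. The empty control peak ranked 204 of 2607 with a score of 91.0, the highest score of any of the 25 peaks. The second CRLM1-OE replicate 2 peak, at chr11:118918224-118919381, lay 7.39 kb from the empty control peak. The antisense control peaks at chr11:118907054-118908227 and chr11:118897731-118898368 lay 1.69 kb and 11.5 kb from it, and the latter also fell on CXCR5. All 5 peaks were GC-rich, between 57.0% and 69.6%, and held 3 to 8 matches to CCCTCCC.

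ZNRF3, whose product is a ubiquitin ligase that removes Frizzled receptors from the membrane, was the only one of the 5 genes for R-spondin receptors and receptor ubiquitin ligases with a peak. It was called in CRLM1-OE replicate 2, within the 3' UTR and at rank 3025 of 3163, near the calling limit. RNF43, LGR4, LGR5 and LGR6 carried no peak. Among genes similar to the 5 of this group, a mean of 45.4% had one in any list. LGR5, the intestinal stem cell marker, and RNF43 are also known targets of the pathway. Neither of the target transcription factor genes SP5 and ASCL2 carried a peak in any list, where a mean of 33.25% of similar genes had one.

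Of the 7 genes for secreted inhibitors, DKK2 alone carried peaks, and in control lists only. A peak in control lists only was found for 10.8% of all genes. Among genes similar to these 7, a mean of 26.4% had a peak in any list. DKK2, at chr4:106921802-107283806 (minus strand), held 0 peaks in both CRLM1-OE lists, 2 and 1 in the empty control lists, and 0 and 1 in the antisense control lists. The 4 peaks lay in 4 places. In empty control replicate 1 they were the upstream peak printed above, at chr4:107287741-107288593 with its edge 3935 bp from the TSS and rank 281 of 1619, and a peak at chr4:106962189-106963089, 321 kb downstream of the TSS in intron 1 of the canonical transcript. The nearest pair from different lists, at chr4:107080408-107080967 in empty control replicate 2 and chr4:107070947-107071646 in antisense control replicate 2, was 8.76 kb apart. This pair lay before the start of the canonical transcript, the latter peak with its midpoint 212.51 kb downstream of the TSS. The TSS of the DKK2 gene record is thus far from the canonical start, and the upstream peak is not near that start. All were AT-rich, with GC contents of 36.3% to 40.0%. DKK2 is the longest of the 54 genes at 362005 bp, and 73.0% of genes like it carried a peak in any list. DKK1, DKK3, DKK4, SFRP1, SFRP2 and SFRP5, which encode the other inhibitors, carried none.

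**Figure D3:**
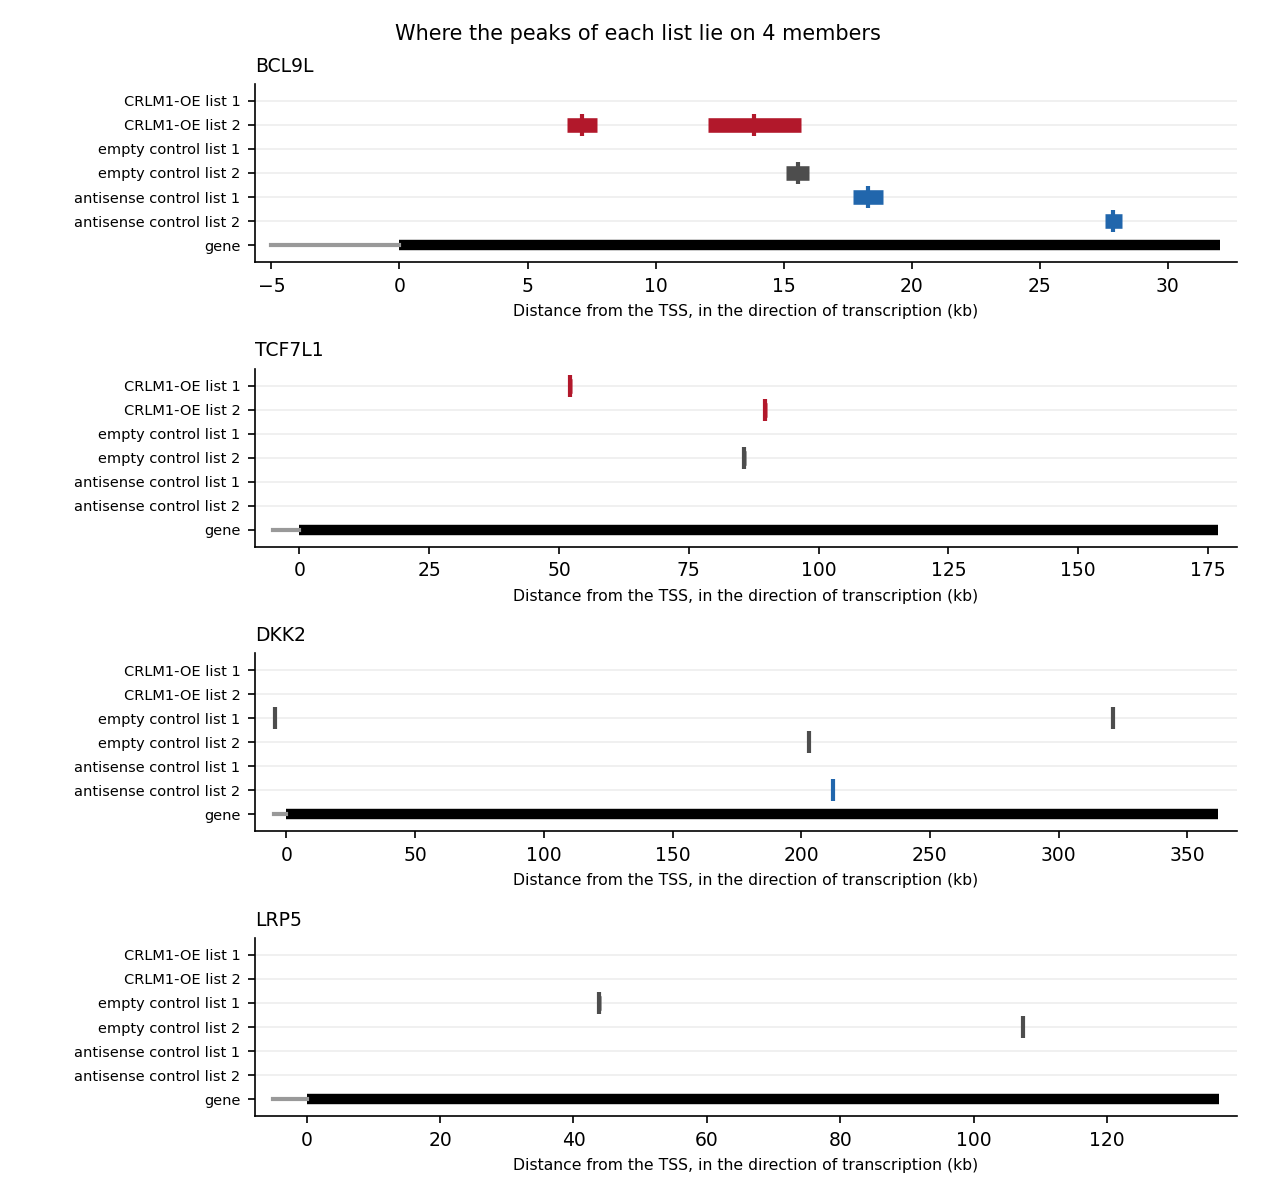
Positions of the peaks of each list (rows, colours by group) on BCL9L, TCF7L1, DKK2 and LRP5, as distance from the TSS in the direction of transcription (kb). Horizontal bars give the width of a peak, vertical ticks its midpoint, the black bar the gene and the grey bar the 5 kb upstream. Peaks of different lists lie in different places except for the pair at about 15 kb in BCL9L, which share 577 bp.

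The design could not show a difference for any single gene. An exact permutation test set the number of peaks per gene in the 2 CRLM1-OE lists against the 4 control lists. It has 15 arrangements, and its two-sided p was taken by doubling the smaller tail. The p of this test cannot fall under 0.1333, so no gene could pass 0.05 whatever its counts. The test is not read further. A peak in at least 1 CRLM1-OE list and in no control list was found for 7 of the 54 genes, beside 11.4% of all genes, and the reverse for 6, beside 10.8%.

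The peaks on Wnt pathway genes lay mostly in introns of the canonical transcript by midpoint, and their scores were like those of all peaks. By midpoint, 17 of the 25 lay in an intron of the canonical transcript, 2 in a 5' UTR exon, 2 in a 3' UTR exon, 1 upstream and 3 outside the canonical transcript but inside the gene record. None had its midpoint in a coding exon. These places were not counted over all peaks on genes, so no share stands beside them. An intron of the canonical transcript can hold exons of another. The empty control replicate 2 peak on BCL9L had all of its 914 bp in exons of some transcript. The WNT10B peak had 440 of 544 bp there, and its midpoint too was in an intron. The edge of 20 of the 25 was over 10 kb from the TSS, beside 67.9% of the 9530 pairings of a peak with a protein-coding gene. The authors' score was under 60 for 17 of them (68.0%), where the lowest score in the lists is 50, and for 63.7% of all peaks. The median score was 57.6 on Wnt pathway genes and 56.7 over all peaks.

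Pooled over the lists, the median GC content of the peaks was above that of all peaks but, without the 5 peaks on BCL9L, near that of peaks on any gene. The median was 51.4% over the 25 and 41.9% over all 16214 peaks, but 45.3% over the 8394 peaks on any protein-coding gene, and without BCL9L it was 44.9% over 20 peaks. By list, the medians on Wnt pathway genes were 62.1% and 44.6% in CRLM1-OE, 36.8% and 49.0% in the empty control, and 55.8% and 46.7% in the antisense control. The medians of all peaks of those lists were 43.3% and 42.3%, 37.4% and 43.9%, and 40.9% and 41.1%. Among peaks on any protein-coding gene the medians were 46.7% and 46.8%, 38.2% and 47.1%, and 44.4% and 44.6%. Against these the median on Wnt pathway genes was lower in CRLM1-OE replicate 2 and in empty control replicate 1, which held 2 AT-rich DKK2 peaks, and higher in the other 4 lists. The regions of the 54 genes are themselves richer in GC than those of all genes, as given above, and the part of this in the peaks was not tested. CCCTCCC, the core of the CT element that hnRNPK is known to bind, occurred in 11 of the 25 peaks, of which 5 were on BCL9L, and in 6 of 20 without that gene, beside 23.0% of all peaks and 30.1% of those on any protein-coding gene. CTTTGAT (either strand), a sequence of the kind TCF and LEF factors bind, occurred in 0 of 25 and in 10.1% of all peaks. Its share among peaks on any protein-coding gene was not taken, and with 25 peaks the 0 is not read as a lack of such sites. The shares of both sequences are not adjusted for GC content or for peak width, which for the 25 peaks had a median of 727 bp.

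**Figure D4:**
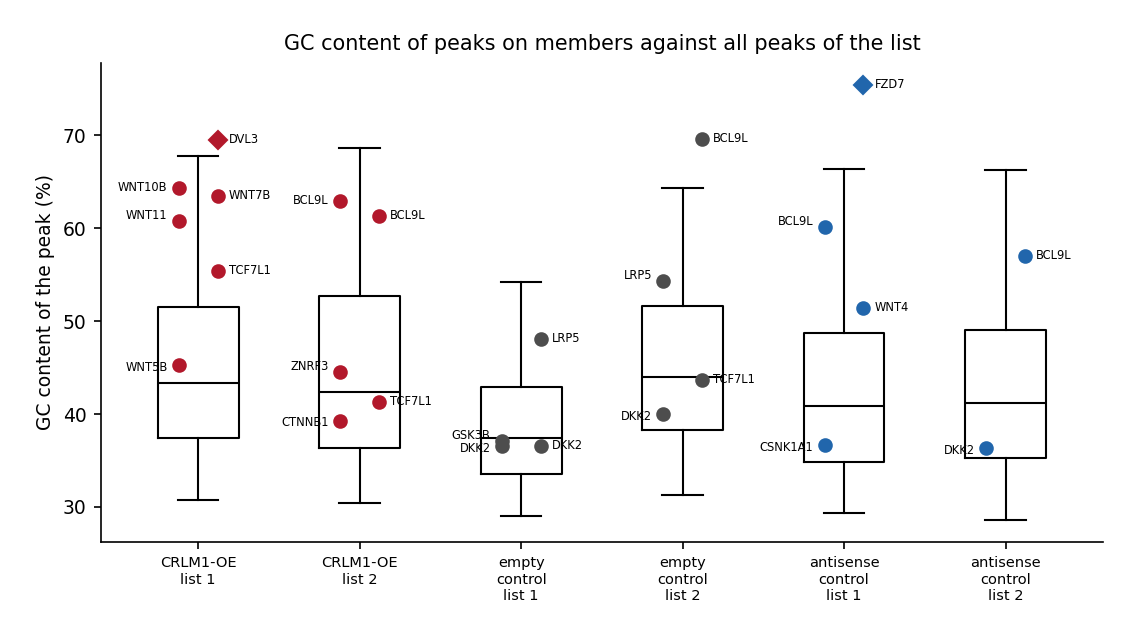
GC content (%) of each peak on a Wnt pathway gene (circles; diamonds where within 1 kb of the TSS), beside all peaks of the same list (box: quartiles and median; whiskers: 5th to 95th percentile). The FZD7 and DVL3 peaks and the empty control replicate 2 peak on BCL9L lie above the 95th percentile of their lists, and the DKK2 peaks lie inside the boxes, below the medians.

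The genes with a peak were the longer ones by median, as among all genes. The 15 genes with a peak had a median length of 58.5 kb and the other 39 a median of 30.1 kb, and for all protein-coding genes the medians were 62.1 kb with a peak and 20.7 kb without. Of 11 Wnt pathway genes for which 50% or more of similar genes carried a peak, 7 carried one. Of 22 for which the share was 30% to 50%, 3 carried one, and of 21 with a share under 30%, 5 did. The 4 genes of the first class without a peak were TCF7L2, LGR6, NKD1 and WNT3, and the 5 of the last class with one were FZD7, WNT10B, CSNK1A1, DVL3 and CTNNB1.

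**Figure D5:**
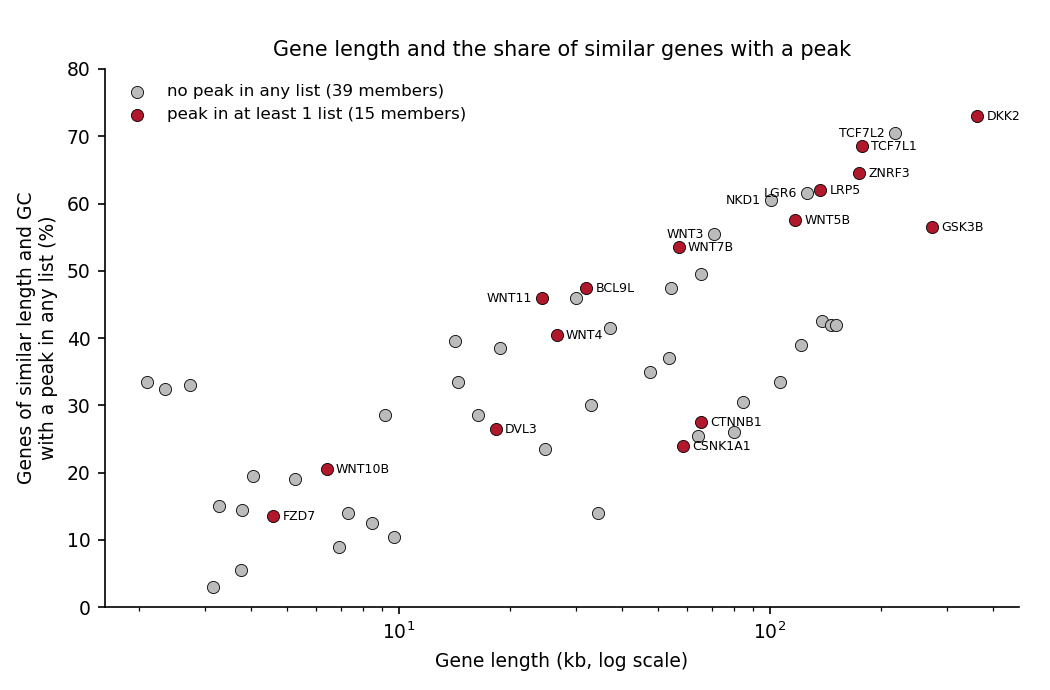
Length of each of the 54 Wnt pathway genes (kb, log scale) against the share of the 200 genes nearest in length and GC content that carried a peak in any list (%). Red points are the 15 genes with a peak and grey points the 39 without, and named grey points have a share of 50% or more. DKK2, the longest gene, has the highest share at 73.0%, and FZD7 the lowest of those with a peak at 13.5%.

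Another 74 Wnt genes, fixed from textbook knowledge and covering further ligands, secretion and planar polarity factors, kinases, cofactors and target genes, were counted in the same way. A peak was found on 7 and 11 of them in the CRLM1-OE lists, 4 and 5 in the empty control lists and 4 and 6 in the antisense control lists, and in any list on 26 of the 74 (35.1%), beside 28.2% of all genes. These 74 genes were longer, with a median length of 50.7 kb against 27.5 kb for all protein-coding genes. No mean share of similar genes was taken for them, so 35.1% is not read as an excess. The shares in the CRLM1-OE lists were 9.46% and 14.9%, beside 10.6% and 9.38% of all genes, and among all genes too the CRLM1-OE mean of 2003 exceeded the 922 of the empty control. The means were 9.0 ± 2.83 (SD, n = 2 lists) in CRLM1-OE, 4.5 ± 0.707 (SD, n = 2) in the empty control and 5.0 ± 1.41 (SD, n = 2) in the antisense control. TSS-proximal peaks were found on 2 and 4 genes in CRLM1-OE (2.7% and 5.41%), 1 and 0 in the empty control (1.35% and 0%), and 1 and 2 in the antisense control (1.35% and 2.7%). The shares of all genes were 1.65% and 2.59%, 0.19% and 0.544%, and 0.839% and 0.889%. CTBP2, a corepressor gene, carried a TSS-proximal peak in both CRLM1-OE lists and in antisense control replicate 1, and these 3 peaks overlapped each other. APC2, a relative of APC, and ROR2, a receptor for Wnt ligands outside the beta-catenin branch, were called in 3 lists each. With CTBP2, peaks in 3 or more lists were found for 3 of the 74 genes (4.05%), beside 2.86% of all genes. Among similar genes the share was 13.5% for CTBP2, 7.0% for APC2 and 17.5% for ROR2. The APC2 peaks of CRLM1-OE replicate 1 and antisense control replicate 2 near its TSS overlapped, whereas the ROR2 peaks lay 324051 to 380410 bp from the TSS in different places. TLE3, another corepressor gene and named after its values were seen, was the only gene of the 74 called in both CRLM1-OE lists without a peak in any control (1.35%, beside 1.05% of all genes). Its peaks did not overlap.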

How the data were processed

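hnRNPK ChIP-seq peak lists from 6 immunoprecipitated libraries of HCT116 cells were used, and the 6 input libraries entered only through the authors' calls. The study's methods name cutadapt for trimming, Bowtie2 for alignment to GRCh38, and MACS2 with a cutoff on the q-value for calling each library against its input. The deposited score has a floor of 50, which differs from such a cutoff, so the caller settings behind the lists are not certain. The score was used to rank peaks within a list. It was also set, pooled over the lists and as deposited, beside the scores of all peaks, and it was not scaled between lists. The lists give no read counts and the depth is unknown, so no count was scaled to it. Of 16768 deposited peaks, 16214 on chromosomes 1 to 22, X and Y were used, and the number of unused value columns was 0.

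Gene, transcript and exon records came from GENCODE release 44 (protein-coding; gene body plus 5 kb upstream, any overlap of at least 1 bp) and sequence from hg38. Similar genes were the 200 protein-coding genes outside the list nearest in z-scored log10 length and GC content. Genes named with positions had a TSS-proximal peak, peaks in both lists of a group or in 3 or more lists, or were CTNNB1; named genes of the second list had a TSS-proximal peak in both CRLM1-OE lists or peaks in 3 or more. Other genes are named to account for every gene of the list. The genes and lists were chosen with earlier results of these data known. The overlap code was tested on simulated data against bedtools 2.31.1. Python 3.11.15, numpy 2.4.6, pandas 2.3.3 and matplotlib 3.10.9 were used. Alternatives were a higher score limit, other windows and transcript starts, midpoints, other numbers of similar genes, leaving out each list, and pairing by replicate number.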

Additional observations from a re-analysis of the deposited data

How the results depend on the processing

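The group differences in numbers of Wnt pathway genes with a peak moved by no more than the combined SD of the groups under the alternatives run. With the 1000 highest-scoring peaks of each list the difference on the body or 5 kb upstream was 0 genes against either control. When a list was left out, the difference to the empty control, 1.5 as reported, ran from 0.5 (without CRLM1-OE replicate 1) to 2.5 (without CRLM1-OE replicate 2), and that to the antisense control, 2.0 as reported, from 1.0 (without CRLM1-OE replicate 1 or antisense control replicate 2) to 3.0 (without CRLM1-OE replicate 2 or antisense control replicate 1). For TSS-proximal peaks the difference to the empty control, 0.5 as reported, ran from 0 to 1.0, and that to the antisense control, 0 as reported, from -0.5 to 0.5. With the start of every transcript both were 1.0, and with 2 kb on either side they were 1.0 and 0.5. With the replicate block (differences within replicate numbers), the difference in genes with a peak on the body or 5 kb upstream was 3 and 0 genes for numbers 1 and 2 against the empty control (mean 1.5) and 2 and 2 against the antisense control (mean 2.0). For TSS-proximal peaks it was 1 and 0 (mean 0.5) and 0 and 0 (mean 0). The numbers are shared only as labels and are not stated to mark a common batch. The count of genes with a peak in both CRLM1-OE lists but not in the controls, 0 as reported, became 1 with peaks above the median score of each list (TCF7L1) and 1 with 10 kb upstream (WNT11). It ran from 0 to 5 when a list was left out, 5 without CRLM1-OE replicate 2, 2 without CRLM1-OE replicate 1 and 1 without empty control replicate 2, since a single list then stands for its group. The count of genes with a peak in any list, 15 as reported, was 5 with the 1000 highest-scoring peaks of each list (DKK2, FZD7, DVL3, WNT7B and BCL9L) and 8 with peaks above the median score, which use fewer peaks by construction. With 10 kb upstream it was 18, adding AXIN2, DVL2 and WNT10A. The mean share of similar genes with a peak over the 6 lists was 8.41% with 200 genes, 8.45% with 100 and 8.10% with 500. With 2 lists per group, unknown depth and 17 of 25 peaks close to the calling limit, the absence of a peak on a gene does not show the absence of hnRNPK there.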
